A study of Mus musculus with 384 samples.

Results

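*Ociad2* is 1 of the 69 assays of a targeted RNA panel, and its level is described here in 380 of the 384 brain samples that the labels list. It was picked as the row that the table of normalized values names *Ociad2*. It was chosen by its own values in CER, dCA3 and vCA3, where no sample lies near 1200. The levels by region label and the 2 ranges are therefore given as a description, without a test. The tests concern the label groups, which were not used for the choice.

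The samples are micropunches of 12 region labels from 32 male Balb/c mice, and TruSeq Targeted RNA libraries made from their total RNA were sequenced. The study asked how supportive or stressful social experience in early life and in adulthood bears on genes that the glucocorticoid receptor (GR) regulates. The labels name 4 groups of 8 mice. They are MS inject (status 1, injection 1), MS naive (status 1, injection 0), Co inject (status 0, injection 1) and Co naive (status 0, injection 0). The labels do not spell out MS, Co or the injected agent, and they do not use the study's own condition names EHOX, EHCD, LMOX and LMCD. The label groups were thus not matched to these conditions. All mice share the strain and the sex, and the labels give postnatal day 9 for every sample, whereas the study describes adult mice. The region labels are AMY (amygdala), BNST (bed nucleus of the stria terminalis), CER (cerebellum), PFC (prefrontal cortex), PVN (paraventricular nucleus), Pit, and the dorsal (d) and ventral (v) parts of the hippocampal fields CA1, CA3 and DG (dentate gyrus). The study names the nucleus accumbens where the labels name Pit. None of the 27 cell type markers looked for is on the panel, so neither the region labels nor the cell makeup of a punch could be checked, and more RNA per cell and more cells of a type cannot be told apart.

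*Ociad2* encodes OCIA domain containing 2, a small membrane protein that has been placed at mitochondria and endosomes. It shares its name-giving domain with *Ociad1*, its neighbouring paralogue. The human protein has been described as a partner of nicastrin, a subunit of the γ-secretase that releases amyloid-β. In mouse genome build GRCm38 (mm10), *Ociad2* (ENSMUSG00000029153.11) spans positions 73322199 to 73341028 of chromosome 5 and is transcribed from the minus strand. *Ociad1*, on the plus strand, lies 8129 bases away. The assay is listed for the transcript NM_026950, and the annotated transcript ENSMUST00000087195 has 7 exons, 6 of them coding, for 154 residues. Where in the transcript the assay lies is not given in the sources used here.

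The values are reads of an assay divided by a size factor of the sample. *Ociad2* ranked 12 of 69 assays by its median of 1295 (161 to 3780, n = 380 samples), and it was not 0 in any sample. The values of a sample are whole multiples of a common step, and with this step taken as 1 read, between 137 and 5764 reads stood behind a value of *Ociad2* (median 1343), out of 12898 to 261007 reads per library. Levels of different assays also reflect how well their primers amplify, so that only levels of 1 assay were compared between samples. A part of the libraries stands apart from the others of the same region label, which bears on all results that follow. In CER, dCA3 and vCA3, 32 of 96 samples had *Ociad2* values under 1200, and their levels of several other assays differed as well. Results are therefore given over all samples of a region label and within each range.

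Ordered by median, the region labels were PVN, dCA1, dCA3, CER, vCA1, vCA3, Pit, PFC, dDG, AMY, BNST and vDG. In PVN, the 30 values ran from 692 to 3681 with a median of 2697. The 32 values in dCA1 ran from 661 to 3555 around a median of 2682, and those in dCA3 from 468 to 3256 around 2405. Each of these labels thus combined a high median with a smaller number of samples far below it, 7 in PVN, 7 in dCA1 and 8 in dCA3. CER had a median of 2119 (481 to 3780, n = 32), vCA1 one of 1889 (713 to 3388, n = 32) and vCA3 one of 1359 (392 to 3140, n = 32). In vCA1 and vCA3, samples lay on both sides of the median with few near it, so that the median describes no typical sample there.

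The remaining 6 region labels had lower medians and narrower spreads. Pit had a median of 1248 (770 to 1893, n = 32), PFC one of 1222 (483 to 1885, n = 32) and dDG one of 1142 (645 to 1633, n = 32). In AMY the median was 1079 (504 to 1960, n = 32), in BNST 945.5 (354 to 1526, n = 31) and in vDG 926 (161 to 2107, n = 31). The highest value of every one of these 6 labels was below the median of CER. Each of the 11 pairs of neighbours in the order overlapped in their interquartile ranges, so that no step from one label to the next exceeded the spread of the samples. Within the hippocampus, the CA1 and CA3 labels had higher medians than the DG labels, and the dorsal label had the higher median in each of these fields. Among the samples above the empty intervals described next, however, the ventral medians were the higher ones in CA1 (3019 against 2732) and CA3 (2745 against 2649).

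**Figure D1:**
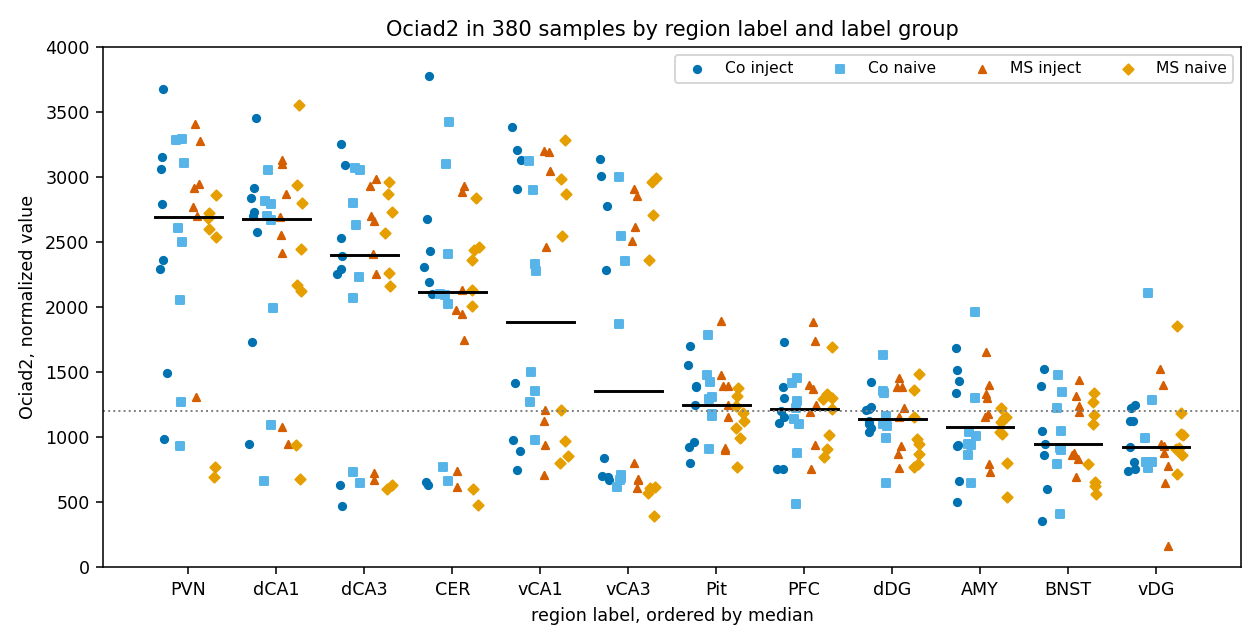
Normalized value of *Ociad2* (y axis) in each of 380 samples by region label (x axis, in the order of the medians), with the label group given by colour and shape; black lines are medians and the dotted line is at 1200. CER, dCA3 and vCA3 have no sample between 843 and 1750, and PVN, dCA1 and vCA1 also have samples well below their main cloud.

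Under the labels CER, dCA3 and vCA3 (96 samples), the 32 values of the lower range ran from 392 to 843 with a median of 659 (mean 651 ± 90.4, SD). The 64 values of the upper range ran from 1750 to 3780 with a median of 2541 (mean 2574 ± 418, SD). The sample just under 1200 had 843 and the one just over it 1750, a ratio of 2.08. The ratio of the upper to the lower median was 3.85. It was 3.64 in CER, 4.13 in dCA3 and 4.08 in vCA3. The ranges thus lay at similar levels under each of the 3 labels.

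The lower range held 8 of 32 samples in CER (481 to 772, median 642) and the upper range 24 (1750 to 3780, median 2337). In dCA3 it held 8 as well (468 to 736, median 642), with 24 in the upper range (2073 to 3256, median 2649). In vCA3, 16 samples were in the lower range (392 to 843, median 672) and 16 in the upper (1876 to 3140, median 2745). Every label group had the same split. In each, 2 of 8 mice were in the lower range in CER, 2 in dCA3 and 4 in vCA3. The region labels of these samples could not be checked with this panel, so that the region medians hold for the samples as labelled. The paper describes library plates that each held several brain regions, with equal numbers of samples of every experimental group in each plate column. Which samples shared a plate or a column is not in the labels. The part of the preparation in the split was not tested.

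Most mice had samples in both ranges. Of the 32 mice, 7 had all 3 samples in the upper range, 19 had 2, 5 had 1, and 1 had none. Both ranges occurred in 24 mice. Where a mouse had a single lower sample, this was the one labelled CER in 4 mice, dCA3 in 5 and vCA3 in 10. Library sizes overlapped between the ranges. Lower range libraries held 83529 to 217926 reads (median 171454) and upper range libraries 109557 to 259606 (median 182324), and *Ociad2* itself had 580 to 1620 and 2075 to 5764 reads. The sum of the normalized values of a sample had a median of 95819 in the lower and of 122039 in the upper range, and its part in the difference was not tested beyond the rescaling given next.

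The width of the empty interval depended on the scaling, whereas the samples on each side did not. With the deposited values it was 1.05 on the log2 scale. As a share of the reads of a library, the highest lower sample had 0.903% and the lowest upper sample 1.15%, which narrowed it to 0.346, and all 64 upper samples were still above. With at least 4 samples on each side, *Ociad2* ranked 1 by this width when set against the 51 other assays with a median of at least 100. The width was 0.374 for *Tmem176a*, which encodes a transmembrane protein of immune cells, and 0.328 for *St6galnac4*, which encodes a sialyltransferase. The rank is part of why *Ociad2* was chosen and is no result of its own.

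The same look at the other 9 region labels was taken after their values had been seen. In vCA1, 16 samples lay at up to 1500 (median 979) and 16 from 2278 upward (median 3019), with 4 mice of every label group on each side. In dCA1, 7 samples lay at up to 1095 (median 947) and 25 from 1734 upward (median 2732). In PVN, 7 samples lay at up to 1492 (median 987) and 23 from 2054 upward (median 2798). These empty intervals of 0.603, 0.663 and 0.461 on the log2 scale were narrower than those in CER, dCA3 and vCA3, and their lower sides lay higher. The lower sides held 16, 7 and 7 samples, where those of vCA3, dCA3 and CER held 16, 8 and 8.

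In the remaining 6 labels, at most 2 samples lay below the widest empty interval. In vDG this was a single sample, MS inject mouse 83, with a value of 161 against 651 for the next. It had 137 *Ociad2* reads of 159360 and the highest *Anxa2* value of all samples, 21258. *Anxa2* encodes annexin A2, which binds membranes in the presence of calcium.

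Whether the label groups differ in *Ociad2* was first tested in each region label with limma on log2(value + 1), with terms for status (MS minus Co), injection (inject minus naive) and their interaction. The medians of the 4 label groups lay close together. The highest was 1.08 times the lowest in dCA3 and 1.28 times in vCA3, with the other 10 labels in between. In AMY, for example, the median of MS inject was 1244 (735 to 1655) and that of MS naive 1078 (541 to 1224), whereas Co inject had 1140 (504 to 1685) and Co naive 979 (652 to 1960), with 8 mice in each. The label groups overlapped in all 12 labels.

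*Ociad2* passed an adjusted p of 0.1 in 0 of 12 region labels for status, for injection and for the interaction, and in 0 of 12 at an unadjusted p under 0.05 for each. Over all assays, the share of tests called was 0% for status, 0.121% for injection and 0% for the interaction. The smallest adjusted p (limma, Benjamini-Hochberg) was 0.915 for status, 0.696 for injection and 0.748 for the interaction. The estimate for injection with this p was that in PVN, a log2 difference of 0.30 (SE 0.25, 95% interval -0.21 to 0.81). Estimates were above 0 in 9 of 12 labels for injection, in 4 for status and in 10 for the interaction, and labels share the same mice. In vCA3 the interval of the status difference ran from -0.84 to 0.72 on the log2 scale, so that smaller differences were not detectable among all samples of this label.

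With the range as a term, the SE of the difference fell from 0.32 to 0.10 in CER, from 0.33 to 0.08 in dCA3 and from 0.38 to 0.08 in vCA3. The term is *Ociad2* itself split at 1200, so that the SE had to fall, and nothing is read from the p-values of this fit.

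**Figure D2:**
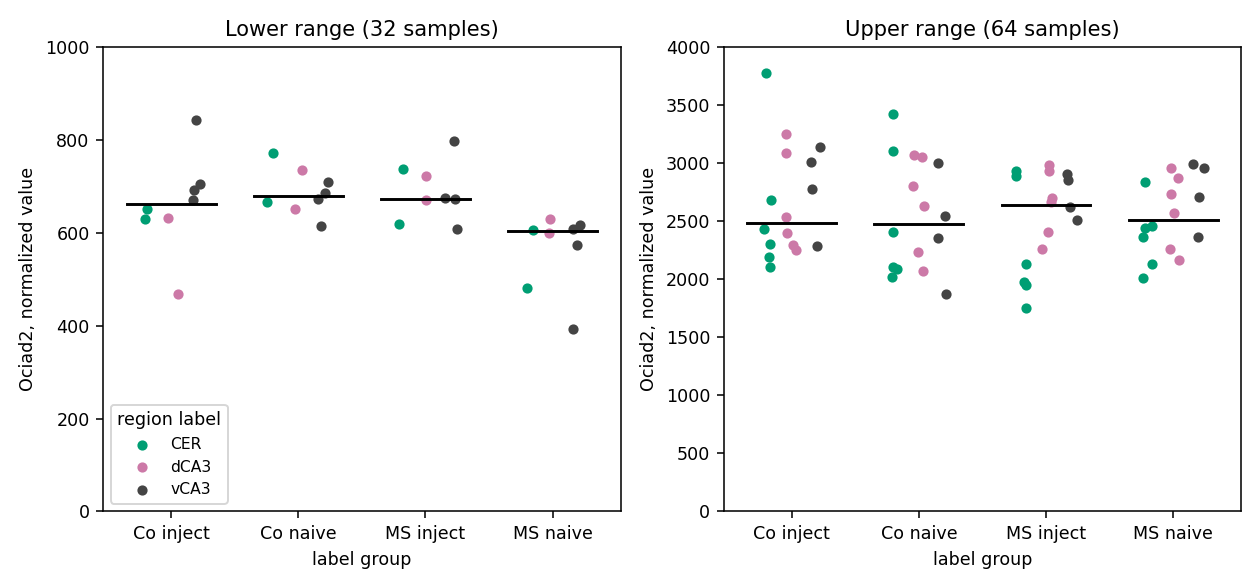
Normalized value of *Ociad2* (y axis, from 0, with a different scale in each panel) by label group (x axis) in the 32 samples of the lower and the 64 samples of the upper range; points are samples coloured by region label and black lines are medians. The label groups overlap in both panels, with medians from 603 to 679 on the left and from 2478 to 2644 on the right.

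Within the lower range, the 8 samples of MS naive ran from 392 to 631 with a median of 603. Those of MS inject ran from 608 to 799 (median 674), those of Co inject from 468 to 843 (median 662) and those of Co naive from 615 to 772 (median 679). MS naive was thus the label group with the lowest median, and it overlapped with each of the others. These samples came from 6 mice in 3 of the label groups and from 7 in MS naive. In the upper range, with 16 samples each, Co inject had a median of 2483 (2102 to 3780) and Co naive one of 2478 (1876 to 3426). MS inject had a median of 2644 (1750 to 2990) and MS naive one of 2516 (2010 to 2997). The 4 label groups thus spanned much the same values. These samples came from 7 mice in Co inject and 8 in each of the other label groups.

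For the tests within a range, the log2 values were centred on the mean of their region label and averaged per mouse, so that the mouse was the replicate (25 mice in the lower range, 31 in the upper). In the lower range, the status difference was -0.12 (SE 0.08, 95% interval -0.28 to 0.05, adjusted p = 0.552). The injection difference was 0.09 (SE 0.08, -0.07 to 0.25, adjusted p = 0.980). The interaction was 0.40 (SE 0.16, 0.08 to 0.73), with an unadjusted p of 0.0173 from limma and an adjusted p of 0.688. It did not pass the threshold, although this unadjusted p was the smallest of the 69 assays, of which 4 were under 0.05. The median interaction over all assays was -0.13.

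In the upper range, the status difference was -0.04 (SE 0.07, -0.18 to 0.09, adjusted p = 0.932). The injection difference was 0.02 (SE 0.07, -0.11 to 0.15, adjusted p = 0.997) and the interaction -0.03 (SE 0.13, -0.30 to 0.23, adjusted p = 0.941). With the deposited scaling, the 95% intervals of status and injection end within 0.18 of 0 on the log2 scale in this range. With all samples rescaled to the same total, the status difference was -0.12. In both ranges, the share of all assays called was 0% for every term. The difference of the terms between the ranges was tested as well. It was 0.03 for status (SE 0.12, adjusted p = 0.926), -0.06 for injection (SE 0.12, adjusted p = 0.999) and -0.43 for the interaction (SE 0.24, -0.92 to 0.06, adjusted p = 0.398). No label group difference was thus shown to depend on the range.

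In the other 9 region labels together, averaged per mouse in the same way (n = 32 mice, 284 samples), the status difference was -0.03 (SE 0.06, -0.15 to 0.09, adjusted p = 0.984). The injection difference was 0.07 (SE 0.06, -0.05 to 0.19, adjusted p = 0.975) and the interaction 0.12 (SE 0.12, -0.12 to 0.37, adjusted p = 0.995). *Ociad2* was not called, with 0%, 2.9% and 0% of the assays called for these terms. The 2 assays called for injection were *CDKN1A*, a cell cycle inhibitor, and *Fkbp5*, a co-chaperone of the GR. Without the samples labelled PVN, dCA1 and vCA1, the differences were -0.01 for status (adjusted p = 0.962), 0.03 for injection (adjusted p = 0.987) and 0.10 for the interaction (adjusted p = 0.97). Without the vDG sample at 161, they were -0.01 (adjusted p = 0.965), 0.09 (adjusted p = 0.830) and 0.16 (adjusted p = 0.996).

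**Figure D3:**
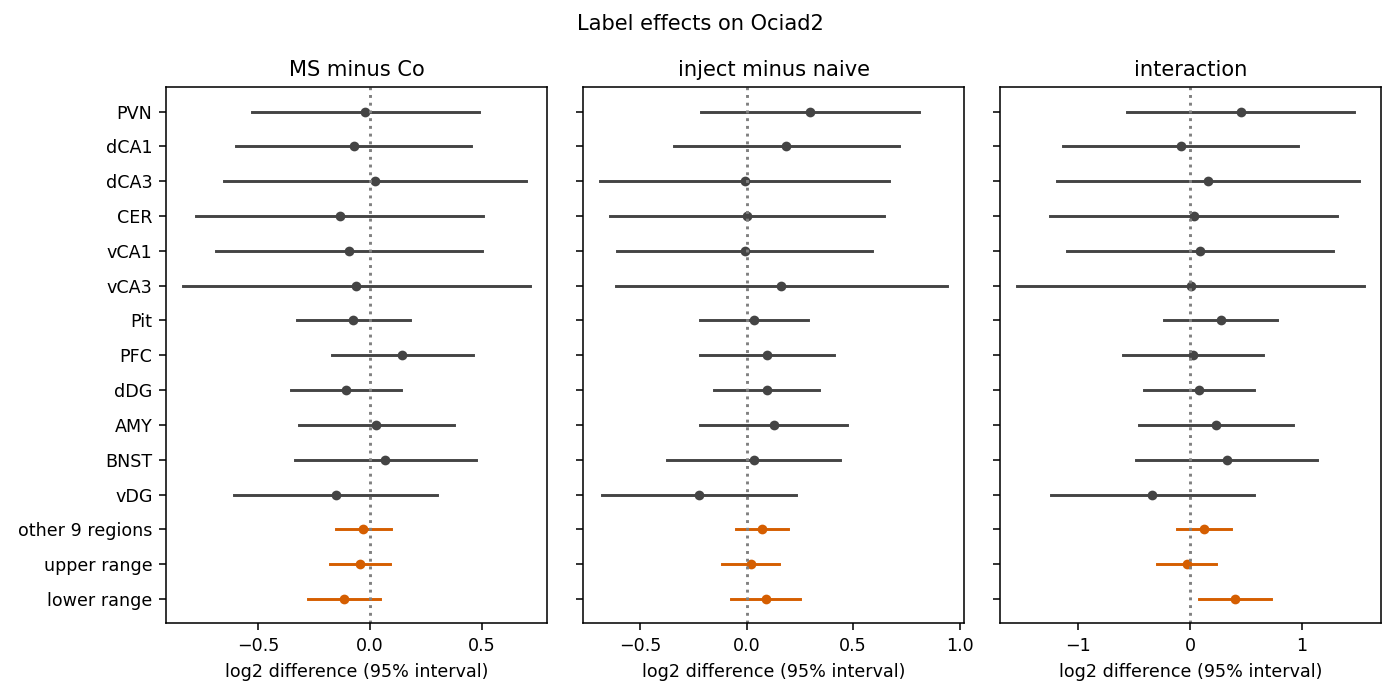
Log2 differences of *Ociad2* with 95% intervals (x axes, a different scale in each panel) for status, injection and their interaction, in each region label (grey) and over mice in the other 9 regions and the 2 ranges (orange). Every interval includes 0 except that of the interaction in the lower range, 0.08 to 0.73, whose adjusted p was 0.688.

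Assays whose values followed *Ociad2* were ranked by Pearson's r on log2(value + 1), among the 51 other assays with a median of at least 100. Such coefficients are a description, since the samples share mice, libraries and region labels. Over the 96 samples of CER, dCA3 and vCA3, the highest were *Tmem176a*, *Rps12*, which encodes a ribosomal protein, and *Fscn1*, which encodes the actin-bundling protein fascin. The lowest were *St6galnac4*, *Ccndbp1*, whose product binds cyclin D1, and *Nr3c1*, the gene of the GR. Since these samples fall into separate ranges, the levels in each range and r within each range are given in place of a pooled r.

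*Tmem176a* had a median of 263 in the upper range (94.2 to 511) and of 63.9 in the lower (29.8 to 118), and 62 of 64 upper samples lay above all lower ones. *St6galnac4* went the other way, with a median of 198 in the upper range (115 to 322) and 578 in the lower (404 to 799), without overlap. It was 1 of 51 assays for which the ranges of *Ociad2* did not overlap. *Nr3c1* had a median of 245 (149 to 450) against 492 (403 to 753), with 62 of 64 upper samples below all lower ones. The medians of *Ccndbp1* were 299 and 792, those of *Rps12* 18189 and 11998, and those of *Fscn1* 278 and 91.5, in the upper and the lower range, respectively. Samples of the same region label thus differed in several assays at once. Over the 51 assays, the median was higher in the upper range in 27 and lower in 24.

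Within the ranges these relations were weaker or of the other sign. For *Tmem176a*, r was -0.34 in the 64 upper and 0.22 in the 32 lower samples. For *St6galnac4* it was 0.62 and 0.25, and for *Nr3c1* 0.28 and -0.07. *Rps12* had -0.05 and 0.44, *Fscn1* -0.36 and -0.23, and *Ccndbp1* -0.30 and -0.19. With smaller coefficients, *Ccndbp1* thus kept the sign of its rank over the 96 samples in both ranges, and *Tmem176a*, *Rps12* and *Nr3c1* kept it in the lower range alone. *St6galnac4* and *Fscn1* had the opposite sign in both. Within the upper range, the highest r was that of *Cd47* (0.64), which encodes a surface protein that restrains phagocytosis. Within the lower range it was that of *Atp5f1* (0.70).

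**Figure D4:**
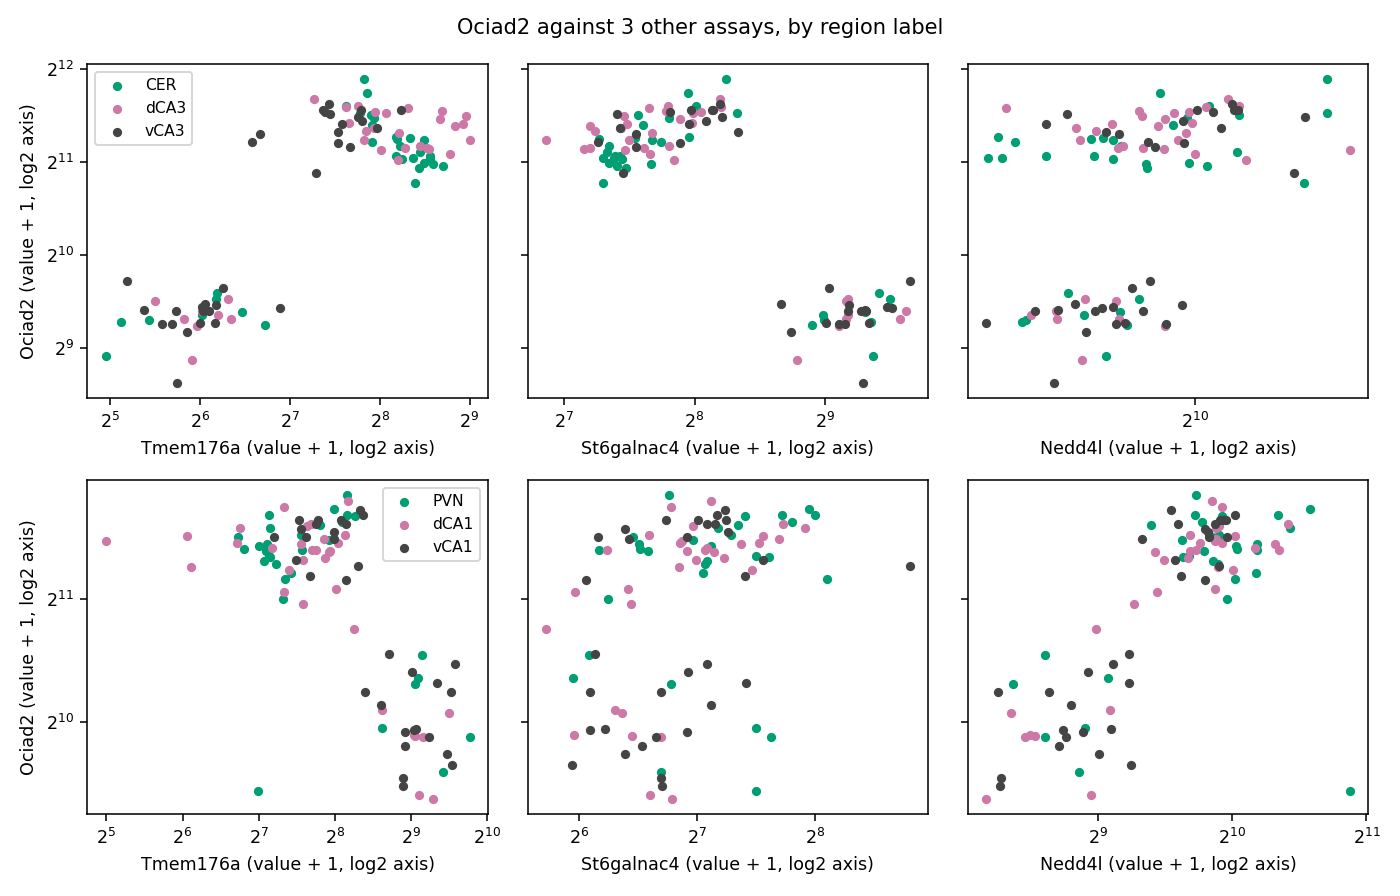
*Ociad2* (y axes) against *Tmem176a*, *St6galnac4* and *Nedd4l* (x axes), as value + 1 on log2 axes, one point per sample coloured by region label; the upper row shows CER, dCA3 and vCA3, the lower row PVN, dCA1 and vCA1. In the upper row, samples low in *Ociad2* are low in *Tmem176a* (29.8 to 118) and high in *St6galnac4* (404 to 799), whereas in the lower row most of them are high in *Tmem176a*.

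In PVN, dCA1 and vCA1, the low side reversed the pattern of the lower range by median in *Tmem176a* and *St6galnac4*, but not in *Nedd4l*. *Tmem176a* was higher on the low side, with medians of 544 and 158 (low and high side) in PVN, 550 and 197 in dCA1, and 518 and 235 in vCA1. *Nedd4l*, which encodes a ubiquitin ligase, was lower on the low side, with 462 and 955 in PVN, 359 and 937 in dCA1, and 458 and 905 in vCA1. In CER, dCA3 and vCA3, *Nedd4l* also had the lower median in the lower range, 828 against 958 in the upper. *Nedd4l* did not overlap between the sides in vCA1 (304 to 605 and 642 to 1036), overlapped in dCA1 (286 to 544 and 507 to 1368), and in PVN ran from 329 to 1880 on the low and from 671 to 1528 on the high side. In dCA1, the value of 507 was that of the sample just above the empty interval, with 1734 for *Ociad2* and 302 for *Tmem176a*. The PVN sample with the lowest *Ociad2* value, 692, went against both patterns, with 1880 for *Nedd4l* and 126 for *Tmem176a*. *St6galnac4* had medians of 109 and 138 in PVN, 86.4 and 126 in dCA1, and 101 and 138 in vCA1, with overlap in each. By median, low *Ociad2* thus came with low *Tmem176a* in one set of labels and with high *Tmem176a* in the other.

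Over the 284 samples of the other 9 region labels, the highest r was that of *Timm23* (0.31), followed by *Higd1a* (0.22) and *Fth1* (0.20), which encodes the heavy chain of ferritin. The lowest were those of *Nedd4* (-0.52), which encodes a ubiquitin ligase, *Spag9* (-0.31), which encodes a scaffold of stress kinases, and *Slco3a1* (-0.27), which encodes an organic anion transporter. Of the 51 assays, *Nedd4* alone exceeded 0.5 in size. These coefficients also hold the differences between the region labels, and they did not recur in each label. *Nedd4* had -0.60 in PVN, -0.70 in dCA1, -0.44 in vCA1 and -0.43 in PFC, but -0.10 in AMY, 0.01 in Pit, 0.01 in dDG, 0.04 in vDG and 0.31 in BNST. *Fth1* was positive in PVN (0.60), dCA1 (0.66) and vCA1 (0.69) and negative in the other 6, from -0.68 in dDG to -0.22 in BNST. In PVN, dCA1 and vCA1, r spans both sides of the empty intervals, between which the medians of both genes differ. Those of *Fth1* were 27578 and 68178.5 (low and high side) in PVN, 28106 and 64551 in dCA1, and 24540 and 46461 in vCA1. Those of *Nedd4* were 1163 and 839, 1167 and 845, and 1091 and 936, respectively. These values of r thus do not bear on r within a side. *Timm23* was negative in BNST alone of these 9 labels (-0.36), and *Higd1a* ran from -0.21 in vDG to 0.31 in PFC.

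The panel holds 4 further genes of mitochondrial proteins, a list put together for *Ociad2*. *Atp5f1* encodes a subunit of the ATP synthase, *Timm23* the channel of protein import through the inner membrane, *Higd1a* a protein of the inner membrane that hypoxia induces, and *Mrpl54* a protein of the mitochondrial ribosome. The values of all 4 overlapped between the 2 ranges of *Ociad2*. Their medians in the upper and the lower range were 13050 and 14806 for *Atp5f1*, 317 and 347 for *Timm23*, 1168 and 1135 for *Higd1a*, and 499.8 and 452 for *Mrpl54*.

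Among samples of 1 range, r with *Ociad2* was 0.41 (upper) and 0.70 (lower) for *Atp5f1*, 0.47 and 0.55 for *Timm23*, 0.33 and 0.25 for *Higd1a*, and 0.09 and -0.01 for *Mrpl54*. The median over the 51 assays was -0.05 and -0.001. In single region labels, *Timm23* lay between -0.36 in BNST and 0.38 in dCA1, and *Atp5f1* between -0.51 in dCA3 and 0.49 in vCA1, with 30 to 32 samples each. In CER, dCA3 and vCA3 these coefficients are over both ranges of *Ociad2*, between which the medians of both genes differ, so that they do not bear on r within a range. Those in PVN, dCA1 and vCA1 are likewise over both sides of the empty intervals. Negative coefficients also occurred in labels without such a split, with -0.48 in vDG, -0.35 in dDG and -0.34 in Pit for *Atp5f1*. By the label terms, the 4 genes passed an adjusted p of 0.1 (limma) in 0 of 48 tests each for status, injection and the interaction, with 1, 1 and 0 tests at an unadjusted p under 0.05. The shares over all assays were 0%, 0.121% and 0%, so that the count of 0 is no result about these genes. Within the ranges and the other 9 regions, 0 of 4 passed for each term, where 1 test, an interaction in the lower range, had an unadjusted p under 0.05. Over all assays, 0% were called in the ranges and 2.9% for injection in the other 9 regions, and 4 of 69 had an unadjusted p under 0.05 for the interaction in the lower range.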

How the data were processed

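TruSeq Targeted RNA libraries of 12 region labels from 32 mice were analysed, with 380 of 384 samples having values. The deposited values are a signal, namely the reads of an assay that the authors divided by a size factor of the sample. Reads of low quality were discarded by the authors with PRINSEQ, and the rest were aligned with BWA to the assay manifest and normalized with DESeq2; the processing notes name mm10. In every sample, 100% of the values were whole-number multiples of one common step (tolerance 0.02 of a step), and numbers of reads were inferred by taking this step as 1 read.

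Values were used as log2(value + 1) in limma 3.58.1 (R 4.3.3), with Benjamini-Hochberg adjustment over the assays and a threshold of 0.1. The 5 surrogate variables of the study were not at hand. An alternative used 5 principal components of the residuals around the label group means of each region label, which do not replace them. Sets of regions were averaged per mouse. Python 3.11.15, pandas 2.3.3 and matplotlib 3.10.9 served for the rest. The fits were tested on simulated data.

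*Ociad2*, the lists and the ranges were chosen with earlier results of these data known. The genes to name were *Ociad2*, the 4 mitochondrial genes and the 3 assays at either end of the ranking by r. *Cd47*, *Nedd4l*, *Anxa2* and the called assays were named after their values had been seen. A result on 1 further assay is not reported here.

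Samples of 1 mouse share the animal. Deviations of such samples from their label group and region were little related across assays, with a median r of 0.16 in 8 pairs of the lower range, 0.02 in 40 of the upper range and -0.004 in 1120 of the other 9 regions. The labels do not say which samples shared a library plate. Replicates are mice as the labels number them. Intervals from reads of amplified libraries would cover counting error only.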

Additional observations from a re-analysis of the deposited data

Results flagged for a closer look

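Of 48 combinations of region label and label group, 3 had a highest or lowest sample whose gap to the next, as a share of the range of the group, exceeded Dixon's 95% critical value. By its construction this limit is passed in about 1 in 20 groups by chance. In PVN, MS inject mouse 97 had an *Ociad2* value of 1311, the lowest of 7, whereas the others ran from 2702 to 3407; it had 797 *Ociad2* reads of 77813 and is one of the 7 lower PVN samples described above. In vDG, Co naive mouse 259 had the highest of 7 values, 2107, against 762 to 1287 in the others. Also in vDG, MS naive mouse 89 had the highest of 8 values, 1858, against 720 to 1189. The cause was not tested in these samples.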

How the results depend on the processing

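Of 111 results recomputed under another setting, 109 kept their direction and their side of the threshold or, for the counts of called region labels and of upper range samples, gave the same count; 2 turned their direction, neither past the threshold. With all samples rescaled to the same total, the injection difference in the upper range was -0.035 in place of 0.02 (adjusted p = 0.914), and the difference of the status effect between the ranges was -0.141 in place of 0.03 (adjusted p = 0.701). This rescaling also moved values without a call: the status difference was -0.03 in place of -0.12 in the lower range and -0.12 in place of -0.04 in the upper, the upper range interaction was -0.20 in place of -0.03, and the injection effect differed by -0.12 in place of -0.06 between the ranges. The range of *Ociad2* was also used as a term in CER, dCA3 and vCA3. Over all assays and labels, 0, 1 and 0 tests were then called for status, injection and the interaction. This term is *Ociad2* itself, split into its ranges, so that nothing is read from the calls of this fit. The fit is counted among the 111. The interaction in the lower range was 0.37 to 0.47 over 7 alternatives (adjusted p 0.510 to 0.834). With 5 principal components as covariates, the calls over all assays and region labels were 25 for status, 38 for injection and 29 for the interaction. Without them the calls were 0, 1 and 0, and *Ociad2* was not called with them (smallest adjusted p 0.346 for injection). The components come from residuals around the mean of each label group in each region label. They can thus change the SE but not the estimates. These fits are among the 111 as well, and nothing is read from their calls. A permutation test of *Ociad2* alone gave p between 0.151 and 0.776 over status and injection in the 3 sets.

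With the mouse as a replicate block over single samples, the interaction in the lower range was 0.38 (adjusted p = 0.834), and the block changed no call. When each of the 32 mice was left out, *Ociad2* passed in no fit. The interaction in the lower range was then 0.30 to 0.44 (adjusted p 0.355 to 0.984). The status difference was -0.16 to -0.07 in the lower range and -0.07 to -0.01 in the upper, and -0.05 to -0.01 in the other 9 regions. The injection difference was 0.04 to 0.14, -0.0137 to 0.0369 and 0.05 to 0.09, respectively. The interaction was -0.0765 to 0.0319 in the upper range and 0.08 to 0.17 in the other 9 regions. The difference between the ranges was -0.00871 to 0.135 for status and -0.17 to -0.02 for injection. Tests with edgeR and DESeq2 were not run, since the deposited values are normalized and the numbers of reads are inferred from their steps in only 69 assays. *Ociad2* had at least 137 reads in each sample, and what limits the precision of the label group differences was not tested.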
